A study of Bos taurus with 38 samples.

Results

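CPEB4 (ENSBTAG00000009995) and EIF2B2 (ENSBTAG00000008664), genes of translation control, were 2 of the 27607 Ensembl identifiers counted in single cattle oocytes and in the cumulus cells around them. They were chosen for their place in the co-expression between the cells of a cumulus-oocyte complex, in which CPEB4 of cumulus cells was linked to several oocyte genes and EIF2B2 of oocytes to 3 cumulus genes. The coefficients that chose them come from these same libraries and are described at the end without a test. Transcript abundance was compared between the compartments of a complex, between classes of complexes, and from one complex to the next.

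The 19 complexes were aspirated from antral follicles of ovaries collected at an abattoir and were all exposed to brilliant cresyl blue (BCB), a dye that the enzyme glucose-6-phosphate dehydrogenase turns colorless. The 9 BCB positive complexes held an oocyte that kept the blue color, taken as a sign of finished growth, and the 10 BCB negative complexes held an oocyte that lost it, as growing oocytes do. Each complex gave 1 library from its single oocyte and 1 from its own cumulus cells as a group, and no unstained complex is part of the design. The labels do not tie complexes to animals, so that some may share a donor and p-values measure the spread between complexes. Complementary DNA was primed on poly(A) tails and amplified, and the number of transcripts and the length of their tails cannot be told apart in such counts. In cumulus cells, fewer cells of a type and less RNA per cell cannot be told apart either.

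CPEB proteins bind the cytoplasmic polyadenylation element of stored mRNA and, with their partners, set the length of its poly(A) tail and so its translation. Grown oocytes make little new RNA and pass through meiosis on such stored messages, and CPEB4 is the family member that follows CPEB1 in the meiotic program of the frog oocyte. EIF2B2 encodes the beta subunit of eIF2B, the exchange factor that reloads eIF2 with GTP for each new round of initiation, and phosphorylated eIF2 blocks eIF2B in the integrated stress response.

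Oocyte libraries held 8886070 to 29810354 counts and cumulus libraries 1103200 to 10430148, and 4 of the latter, all from BCB negative complexes, held fewer than 2000000 counts. The genes of mitochondrial DNA took 0.966 to 2.86% of the counts of BCB positive cumulus libraries and 1.17 to 17.4% of BCB negative ones. The markers found went with the labels. ZP2, ZP3 and DAZL, oocyte genes, summed to 2767 to 5095 CPM, the counts of a gene scaled to a common library total, in oocytes and to 0.108 to 66.5 in cumulus cells. The 11 cumulus and granulosa markers summed to 9241 to 37424 CPM in cumulus cells and to 113 to 3565 in oocytes, with the highest oocyte value in complex 72. Of the 12 oocyte markers listed, 9 had no symbol in the tables used here, and neither had the theca, blood and vessel markers.

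CPEB4 was an oocyte-rich transcript and EIF2B2 a cumulus-rich one. In BCB positive oocytes CPEB4 ran from 73.8 CPM through a median of 134 to 202, and in BCB negative oocytes from 77.8 through 157 to 220.0. In their cumulus cells it ran from 9.97 through 19.2 to 43.7 CPM and from 4.53 through 18.2 to 30.6, respectively. The lowest oocyte library thus lay above the highest cumulus library. How many of all genes lay apart in this way was not counted. CPEB4 was 1 of the better covered genes of the oocyte, with 871 to 6558 counts and 1758 identifiers above it by mean CPM. In cumulus cells it had 6892 identifiers above it and only 5 to 406 counts, the lowest in complex 68.

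EIF2B2 went the other way. In BCB positive oocytes EIF2B2 ran from 12.1 CPM through a median of 17.97 to 28.3, and in BCB negative oocytes from 7.92 through 11.5 to 32.7. In BCB positive cumulus cells it ran from 27.9 through 39.6 to 47.5 CPM, and in BCB negative cumulus cells from 10.7 through 22.2 to 34.7. The oocyte and cumulus ranges of EIF2B2 overlapped, unlike those of CPEB4. It held 94 to 976 counts in oocytes and 17 to 495 in cumulus cells.

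**Figure D1:**
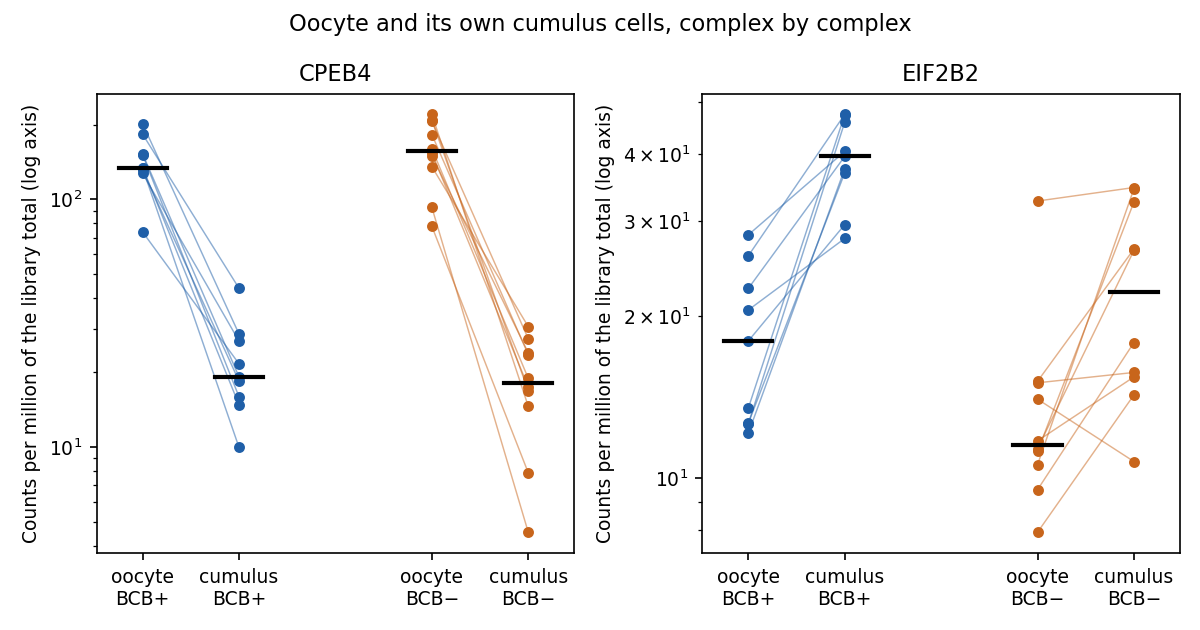
CPEB4 (left) and EIF2B2 (right) in each oocyte and in its own cumulus cells, in CPM of the library total on a log axis, for 9 BCB positive (blue) and 10 BCB negative (orange) complexes. Points are libraries, thin lines join the libraries of 1 complex and black bars are medians. CPEB4 was higher in the oocyte in 19 of 19 complexes, and EIF2B2 was higher in cumulus cells in 18 of 19.

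Compared within a complex, CPEB4 was higher in the oocyte in 19 of 19 complexes. On the CPM scale the ratio of oocyte to own cumulus cells ran from 3.40-fold in complex 24 to 20.5-fold in complex 68, whose cumulus library held 5 counts of the gene and the lowest total. Across all genes tested between the compartments, edgeR's quasi-likelihood test called 88.8% at a Benjamini-Hochberg FDR under 0.01, 46.5% higher in oocytes and 42.3% lower, so that a call by itself says little of any gene. The test compared group means over all 38 libraries and did not pair the libraries of a complex. In this unpaired fit CPEB4 was 5.56-fold higher in oocytes, a log2 fold change of 2.47 ± 0.17 (SE, n = 19 complexes; FDR = 1.49e-16), and 21.4% of the 14785 genes tested had a higher value. The difference was 2.50 ± 0.25 on the log2 scale within the 9 BCB positive complexes, where 84% of genes were called, 43.8% higher and 40.1% lower. It was 2.45 ± 0.24 within the 10 BCB negative ones, where 83.6% were called, 43.8% higher and 39.8% lower.

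EIF2B2 was higher in cumulus cells in 18 of 19 complexes by CPM. The exception was complex 6, with 14.0 CPM in the oocyte and 10.7 in cumulus cells from 19 counts. In the other complexes the cumulus level was 1.045-fold to 3.64-fold that of the oocyte. In the same unpaired fit the transcript was 2.48-fold lower in oocytes, a log2 fold change of -1.31 ± 0.16 (SE, n = 19 complexes; FDR = 8.92e-10 by edgeR's quasi-likelihood test), with -1.26 ± 0.23 within BCB positive and -1.36 ± 0.23 within BCB negative complexes. With trimmed mean of M values (TMM) factors fitted over all 38 libraries, EIF2B2 was lower in the oocyte in 19 of 19 complexes.

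On the side where each gene was lower, its median share of the other side lay above that of each marker gene. The cumulus level of ZP2 had a median of 0.0086% of the oocyte level, and that of ZP3 0.0198%, against 12.6% for CPEB4, and that of DAZL was 1.11%. Over the 11 cumulus markers the oocyte level had medians from 0.152% of the cumulus level for INHA to 4.81% for CYP19A1, against 55.5% for EIF2B2. Complex by complex, the shares overlapped in part. On the cumulus side DAZL reached 14.7%, and CPEB4 ran from 4.89 to 29.4%. On the oocyte side CYP19A1 reached 95.2%, and EIF2B2 ran from 27.5 to 131%. The other markers stayed below the lowest share of CPEB4 or EIF2B2 on their side. The part of RNA carried over between the compartments was not tested.

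Between the BCB classes neither gene passed the test in oocytes. The test called 0 of 12753 oocyte genes (0%), with 711 at an unadjusted p under 0.05, and DESeq2 called 1 gene. CPEB4 was -0.14 ± 0.18 on the log2 scale in BCB positive against BCB negative oocytes, with a 95% interval from -0.49 to 0.21 and an edgeR FDR of 0.944. EIF2B2 was 0.41 ± 0.23, with an interval from -0.05 to 0.86 and an edgeR FDR of 0.888. All 9 BCB positive oocytes lay above the median of the BCB negative ones in EIF2B2, and 6 of the 10 BCB negative ones lay below every BCB positive one. The other 4 BCB negative oocytes, of complexes 6, 65, 89 and 91, lay within or above the BCB positive range, and that of complex 89 held the highest EIF2B2 level of all. The share of all oocyte genes with a like separation was not counted. The cumulus and granulosa markers in the same oocyte libraries summed to 113 to 3565 CPM in BCB positive oocytes, with a median of 219, and to 130 to 1031 CPM in BCB negative ones, with a median of 156. By marker sum the highest oocyte libraries were those of complexes 72, 88, 74, 70 and 89, at 3565, 1031, 835, 531 and 345 CPM. In the same order they held 28.3, 11.2, 22.5, 12.6 and 32.7 CPM of EIF2B2. Complex 72 was also the highest BCB positive oocyte in EIF2B2. The part of cumulus RNA in the EIF2B2 levels of oocytes was not tested.

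The complex numbers fall into 3 runs, from 6 to 24, from 65 to 74 and from 86 to 91, and the last holds BCB negative complexes only. Within the BCB negative oocytes the TMM-scaled CPM of CPEB4 ran from 132 to 218 in the 6 oocytes of the last run, and was 81.3, 155 and 95.6 in the 3 BCB negative oocytes of complexes 65, 66 and 68. That of complex 6, in the first run, was 155, so that the runs overlapped, and a difference between runs was not tested. The 6 BCB positive oocytes of the middle run ran from 133 to 200 on that scale, above 2 of those 3. With the run as a covariate the BCB difference of CPEB4 in oocytes was 0.22 on the log2 scale (edgeR FDR = 0.676), and in complexes 65 to 74 alone it was 0.53 ± 0.20 (edgeR FDR = 0.176), opposite in direction to the value over all complexes. Without the 4 complexes of low cumulus total it was -0.35 ± 0.16 (edgeR FDR = 0.426), farther from 0 in the first direction. Its FDR over all 12 alternatives ran from 0.176 to 1.00. For EIF2B2 in oocytes the direction was the same within the middle run, at 0.62 ± 0.32 (edgeR FDR = 0.289).

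In cumulus cells the BCB contrast called 69 of 12313 genes (0.56%), 5 higher (0.0406%) and 64 lower (0.52%) in BCB positive complexes, with 2299 genes at an unadjusted p under 0.05, and neither CPEB4 nor EIF2B2 was among the 69. With library totals in place of TMM factors, the split was 1601 higher and 103 lower. CPEB4 was -0.23 ± 0.26 on the log2 scale, with an interval from -0.74 to 0.29 (edgeR FDR = 0.677), and -0.38 ± 0.29 without the 4 complexes of low cumulus total (edgeR FDR = 0.517). EIF2B2 was 0.28 ± 0.17, with an interval from -0.06 to 0.62 (edgeR FDR = 0.391). By plain CPM, however, 7 of the 9 BCB positive cumulus libraries lay above every BCB negative one in EIF2B2, and 7 of the 10 BCB negative ones lay below every BCB positive one. Such a separation was not counted over all cumulus genes.

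That separation depended on the scale. After division by TMM factors, which ran from 0.542 to 1.27 in cumulus libraries, EIF2B2 ran from 23.8 through 33.2 to 37.8 in BCB positive and from 13.8 through 29.2 to 38.04 in BCB negative cumulus cells, and 0 of the 9 BCB positive libraries lay above every BCB negative one. With library totals alone the difference of EIF2B2 was 0.75 ± 0.21 on the log2 scale (edgeR FDR = 0.009999, at a threshold of 0.01), but the median of all 12313 genes then stood at 0.46, against -0.01 with TMM factors. The 4 cumulus libraries of lowest total, of complexes 6, 65, 66 and 68, held 17 to 44 counts of EIF2B2 and mitochondrial shares of 6.52 to 17.4%. With the genes of mitochondrial DNA left out, EIF2B2 was 0.28 ± 0.17 on the log2 scale (edgeR FDR = 0.394). With the log10 library total as a covariate, EIF2B2 was 0.10 ± 0.22 on the log2 scale (edgeR FDR = 0.919). Without those 4 complexes EIF2B2 was 0.21 ± 0.17 in the TMM fit (edgeR FDR = 0.562).

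The BCB difference was also compared between the compartments, in which 54 of 10281 genes (0.525%) were called by edgeR's quasi-likelihood test, 52 of them higher (0.506%) and 2 lower (0.0195%), and 46 higher and 620 lower with library totals alone. It was 0.12 ± 0.32 on the log2 scale for CPEB4 (FDR = 0.932) and 0.15 ± 0.30 for EIF2B2 (FDR = 0.896), oocyte minus cumulus. With the complex as a block, these values were 0.13 and 0.15, and 2 genes in all were called.

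**Figure D2:**
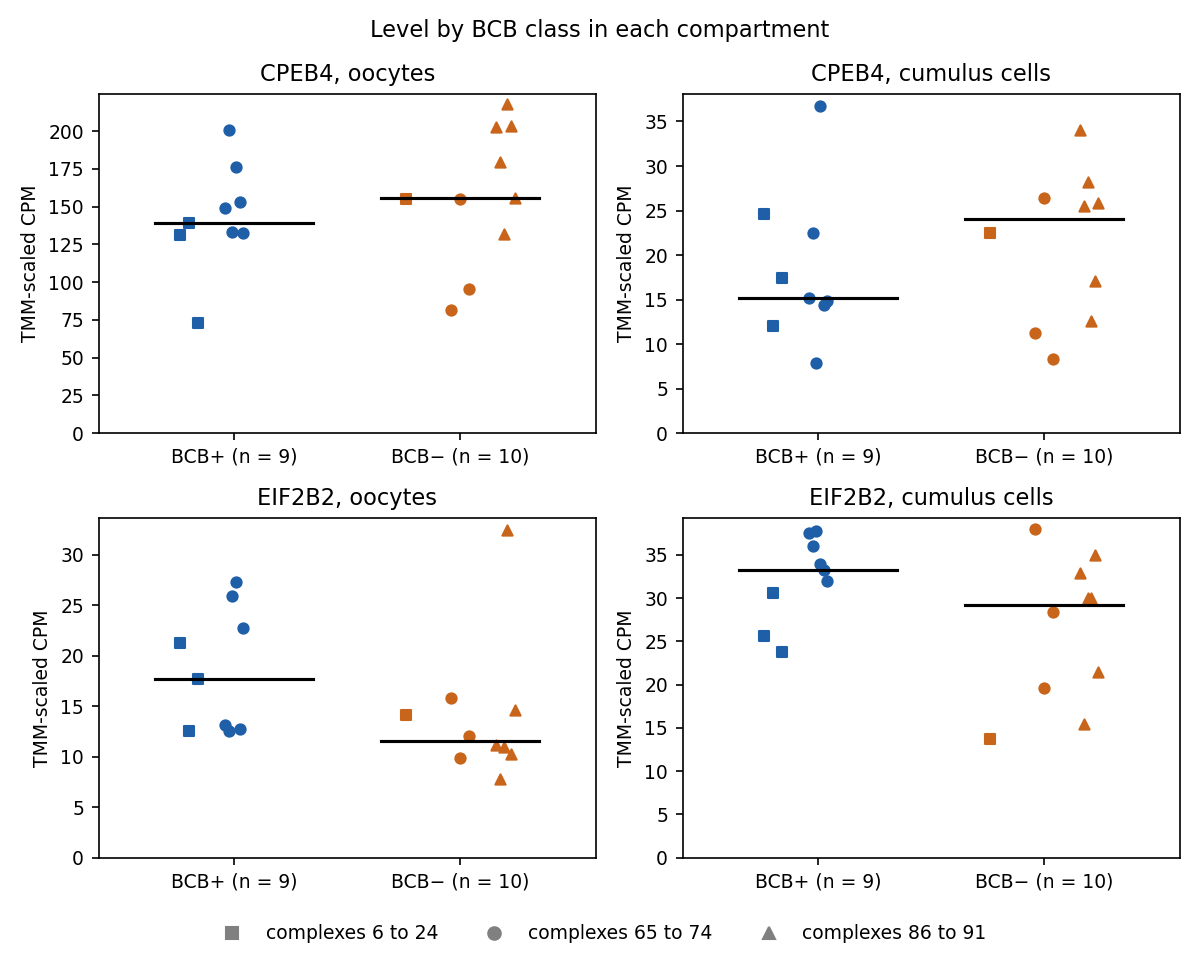
TMM-scaled CPM of CPEB4 (top) and EIF2B2 (bottom) in oocytes (left) and cumulus cells (right) of 9 BCB positive (blue) and 10 BCB negative (orange) complexes. Each point is a library, its shape gives the run of complex numbers and bars are medians. The classes overlapped in every panel, and the BCB negative oocytes of complexes 86 to 91 lay between 132 and 218 in CPEB4.

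Ordered by their medians in CPM, CPEB4 stood highest in BCB negative oocytes, then in BCB positive oocytes, BCB positive cumulus cells and BCB negative cumulus cells. The order of the cumulus classes depended on the scale, with TMM-scaled medians of 15.2 in BCB positive and 24.02 in BCB negative cumulus cells. The 3 oocyte markers summed to 0.108 to 1.82 CPM in BCB positive and to 0.661 to 66.5 CPM in BCB negative cumulus libraries, and their part in the CPEB4 level was not tested. The neighbours of 1 compartment did not differ beyond their spread, and the step from oocytes to cumulus cells was the called one. For EIF2B2 the order was BCB positive cumulus cells, BCB negative cumulus cells, BCB positive oocytes and BCB negative oocytes, with neither step within a compartment past the threshold in the TMM fits. With library totals alone, the scale of this order, the step within cumulus cells passed it, as given above.

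CPEB4 in both compartments and EIF2B2 in oocytes had a wider spread between complexes than most genes of like abundance, and EIF2B2 in cumulus cells did not. The coefficient of variation of CPEB4 in CPM was 28.0% over the 19 oocytes and 44.4% over the 19 cumulus samples, and that of EIF2B2 was 42.7% and 37.9%. Once counting error was taken out by the fit, the biological coefficient of variation of CPEB4 in oocytes was 0.271, above that of 92.5% of the 1677 oocyte genes of like abundance, whose median was 0.176. That of EIF2B2 in oocytes was 0.364, above 82.2% of 1732 genes of like abundance, with a median of 0.273. In cumulus cells CPEB4 stood at 0.387, above 83.4% of 2624 such genes, whereas EIF2B2 stood at 0.251, above 41.9% of 2796. Genes are not independent replicates, and these shares are descriptions.

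The spread was compared as the mean absolute deviation from the group median of log2(TMM-scaled CPM + 1), with two-sided exact permutation tests. EIF2B2 in cumulus cells deviated by 0.166 in BCB positive and by 0.379 in BCB negative complexes (exact p = 0.116, 0.464 after Benjamini-Hochberg adjustment over 4 comparisons). For EIF2B2 in oocytes the deviations were 0.387 and 0.348, for CPEB4 in oocytes 0.248 and 0.331, and for CPEB4 in cumulus cells 0.430 and 0.492, with adjusted exact p-values of 0.847 in each. Without TMM factors the gap of EIF2B2 in cumulus cells widened to 0.202 against 0.513 (adjusted exact p = 0.0112), and its adjusted p over 4 alternatives ran from 0.0112 to 0.955. In complexes 65 to 74 alone, EIF2B2 in oocytes deviated by 0.462 in 6 BCB positive and by 0.210 in 3 BCB negative complexes (exact permutation p = 0.0119 over 84 splits, adjusted 0.0476). That p is the lowest that 84 splits can give. Among 3 complexes the middle one lies at the group median by construction, which lowers their mean deviation. The test therefore cannot decide whether the spread differed there.

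Between compartments, CPEB4 deviated by 0.292 in oocytes and by 0.463 in cumulus cells (exact permutation over swaps within a complex, p = 0.0644, adjusted p = 0.129). EIF2B2 deviated by 0.367 and 0.278 (exact p = 0.432). Neither difference passed the threshold. CPEB4 held 5 to 406 counts in cumulus cells against 871 to 6558 in oocytes, and the part of counting error in its spread was not tested.

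The CPEB4 level of an oocyte moved with the depth of its library. Over 19 oocytes, log2(TMM-scaled CPM + 1) of CPEB4 and the log10 library total had a Pearson's r of 0.621 (permutation p = 0.00421, 0.0253 after adjustment over 6 relations) and a Spearman's rho of 0.707 (permutation p = 0.000950, adjusted 0.00570). Without the 2 oocytes farthest from the median total, r was 0.595. Within BCB positive oocytes r was 0.505, within BCB negative oocytes 0.689 and within complexes 65 to 74 0.561, with adjusted permutation p-values of 0.501, 0.166 and 0.232, so that r was above 0 in each and passed the threshold in none. Without the 2 farthest oocytes, r was 0.032 within BCB positive oocytes and 0.122 within complexes 65 to 74, and the relation there rested on those 2, whereas it was 0.782 within BCB negative oocytes. Its adjusted p over 5 alternatives ran from 0.00540 to 0.501. The 6 oocyte libraries of the last run of complexes held 19195112 to 29810354 counts. With the log10 library total as a covariate, the BCB difference of CPEB4 in oocytes was -0.0056 ± 0.15 on the log2 scale (edgeR FDR = 1.00), against -0.14 without it.

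The other relations did not pass the threshold after adjustment over the 6. EIF2B2 in cumulus cells and the log10 cumulus total had an r of 0.471 (permutation p = 0.0411, adjusted 0.123) and a rho of 0.512 (adjusted permutation p = 0.0807), with an r of 0.476 without the 2 farthest libraries. Within BCB positive complexes r was 0.722 and within BCB negative complexes 0.179, or -0.112 without the 2 farthest there (adjusted permutation p = 0.162 and 0.665). Without TMM factors this r was 0.809 (adjusted permutation p = 0.000120). EIF2B2 in oocytes had an r of 0.034 and CPEB4 in cumulus cells an r of -0.029 with their library totals. The oocyte level and the own cumulus level of a complex had an r of 0.426 for CPEB4 (rho = 0.361, adjusted permutation p = 0.139 for r) and of 0.310 for EIF2B2 (rho = 0.214, adjusted permutation p = 0.293 for r). For CPEB4 it was 0.706 within complexes 65 to 74 (adjusted permutation p = 0.196) and 0.214 without the 4 complexes of low cumulus total (adjusted permutation p = 0.537).

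**Figure D3:**
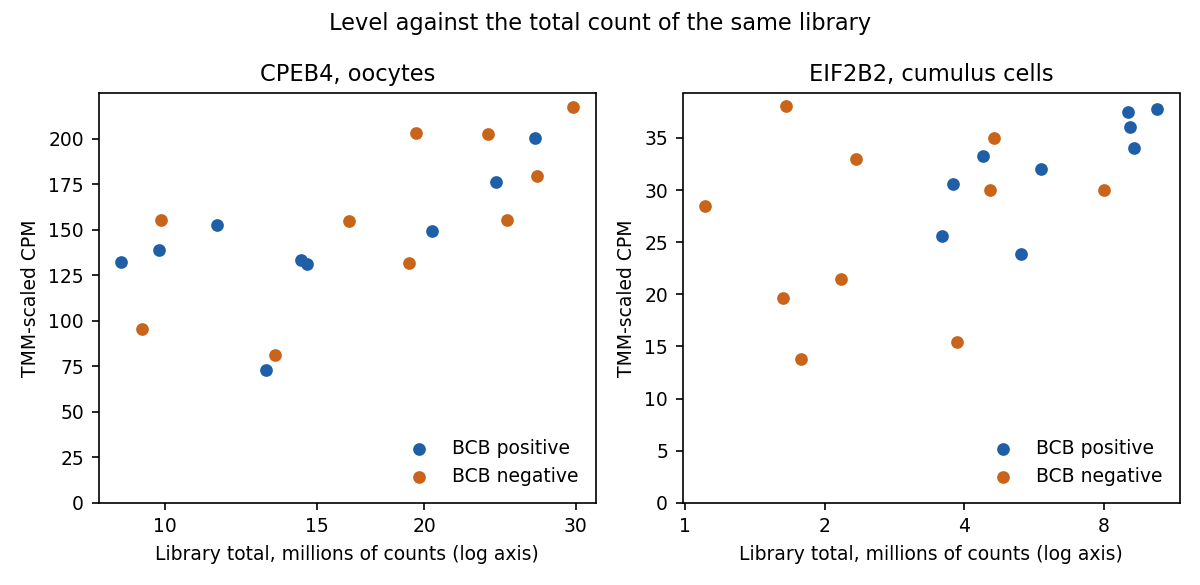
TMM-scaled CPM of CPEB4 in 19 oocytes (left) and of EIF2B2 in 19 cumulus samples (right) against the total count of the same library, on a log axis. Points are libraries, BCB positive in blue and BCB negative in orange. CPEB4 was higher in the deeper oocyte libraries (r = 0.621 with the log10 total), and r was 0.471 for EIF2B2.

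Other members of the CPEB family differed in how they were shared between the compartments. CPEB1, the founding member, which holds and then activates stored messages in oocytes, was higher in oocytes (log2 fold change 3.59 ± 0.10, edgeR FDR = 6.76e-29) and ran from 545 to 845 CPM there. CPEB2 lay between 6.04 and 25.7 CPM in oocytes and between 5.44 and 18.5 CPM in cumulus cells, and was not called (0.02 ± 0.18, edgeR FDR = 0.903). Of the 3 family members with a symbol, CPEB1 and CPEB4 were thus higher in oocytes, as were 46.5% of all genes tested. Between BCB classes 0 of 3 were called in either compartment, where 0% of oocyte and 0.56% of cumulus genes were. The library-total scale moved the 3 values together with the median of all genes, which went from 0.15 to 0.56 on the log2 scale.

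Symbols came from the study's own tables, which in part list genes picked on these libraries, so that the counts that follow are descriptions of the genes found and are no independent evidence of a direction. Of 26 genes of cytoplasmic polyadenylation and storage of maternal mRNA, 12 had a symbol, and 7 were higher and 4 lower in oocytes, where 46.5% and 42.3% of all genes tested were called, with a median log2 fold change of 0.67 against 0.15 over all genes. Highest was YBX2, a germ cell protein that packages stored mRNA, at 8.78 ± 0.46, followed by DAZL, a germ cell RNA-binding protein, at 6.81 ± 0.51 and ZAR1L, a relative of the maternal factor ZAR1, at 5.88 ± 0.24. Lower in oocytes were MSI2, an RNA-binding protein of the Musashi family, at -5.03 ± 0.26, PABPC1, the main cytoplasmic poly(A)-binding protein, at -2.46 ± 0.14 and DDX6, a helicase of mRNA storage granules, at -2.09 ± 0.10. YBX2 and DAZL passed the filter on low counts in oocytes only, and MSI2 in cumulus cells only. The filter thus fixed their direction, and they are part of the counts above. The poly(A) polymerase partner of CPEB, TENT2, singled out after its value was seen, stood at 1.92 ± 0.08, against 2.47 ± 0.17 for CPEB4.

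All 5 deadenylation genes with a symbol, of 13 listed, were higher in oocytes, against 46.5% of all genes tested, with a median of 0.91 on the log2 scale against 0.15. Of these, CNOT3, CNOT6L and CNOT1, parts of the CCR4-NOT complex that shortens tails, stood at 2.15, 2.08 and 0.91 on the log2 scale. Of the subunits of eIF2B, EIF2B2 was the 1 of 5 with a symbol, and the other subunits were not analysed here. Of the 3 eIF2 kinases found, EIF2AK2, the kinase that senses double-stranded RNA, was lower in oocytes at -5.13 ± 0.27, EIF2AK3, the kinase of the endoplasmic reticulum, was higher at 0.45 ± 0.13 (edgeR FDR = 0.00201) but was called within neither class, and EIF2AK4, the sensor of amino acid shortage, was at -0.02 ± 0.11 (edgeR FDR = 0.832). Of 2 targets of the integrated stress response, ASNS, asparagine synthetase, was higher in oocytes at 1.71 ± 0.16 and DDIT4, an inhibitor of mTORC1, was lower at -4.25 ± 0.34. None of these genes was called between the BCB classes where it was tested, by the same test that called 0% of oocyte and 0.56% of cumulus genes. EIF2AK2 and MSI2 in oocytes and YBX2 and DAZL in cumulus cells did not pass the filter on low counts and were not tested there. These genes entered the comparison of compartments only through the side where they were high, which fixed their direction.

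**Figure D4:**
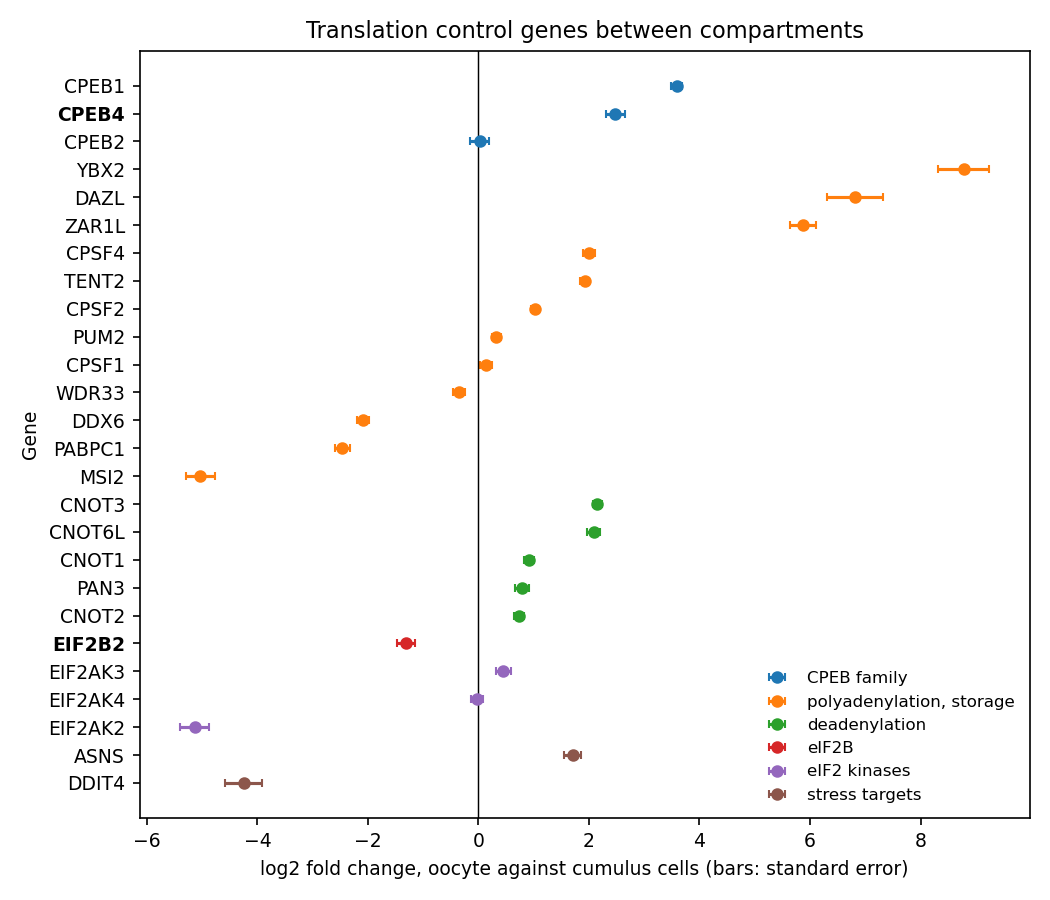
Log2 fold change of oocytes against cumulus cells for the genes of translation control with a symbol, from edgeR's quasi-likelihood fit over 38 libraries. Points are fitted values, bars are standard errors, colors give the list and the names of CPEB4 and EIF2B2 are bold. CPEB4 stood at 2.47 between CPEB1 at 3.59 and CPEB2 at 0.02, and EIF2B2 stood at -1.31.

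The relations that chose the members were computed between genes of the oocyte and genes of the cumulus cells of the same complex, on counts divided by the TMM factor alone and transformed with the inverse hyperbolic sine. On this scale a value still carries the total count of its library. CPEB4 of cumulus cells reached a coefficient of 0.99 within the 9 BCB positive complexes with 7 oocyte genes, from 0.994 for TUBB, a tubulin, to 0.992 for RPL14, and the next gene below the threshold stood at 0.989. The others were ZC3H10, a zinc finger protein, and the ribosomal protein genes RPS14, RPS9, RPL27A and RPS6. Over all 19 complexes it reached 0.85 with SRGN, a proteoglycan core protein, at 0.857 and with 1 other gene at 0.852, and the next stood at 0.846. Ribosomal protein genes and tubulins have many near-identical copies, and their counts are uncertain to that extent.

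EIF2B2 of oocytes reached 0.85 over all complexes with 3 cumulus genes, and the next stood at 0.847. They were RELB, a subunit of the transcription factor NF-kappa B, at 0.912, ZSWIM4, a zinc finger protein, at 0.877 and RNF128, a ubiquitin ligase, at 0.860. Within BCB positive and BCB negative complexes these coefficients were 0.965 and 0.910 for RELB, 0.893 and 0.903 for ZSWIM4, and 0.942 and 0.812 for RNF128. RELB and RNF128 ran from 1.59 to 8.74 and from 1.08 to 8.61 CPM in cumulus cells, low levels that rest on few counts, and ZSWIM4 from 3.69 to 44.4.

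The coefficients of all 11 pairs were lower on a scale without the library total, to a different degree. The median coefficient of CPEB4 in cumulus cells with all 12753 oocyte genes was 0.508 over the 19 complexes and 0.762 within the BCB positive ones, and that of EIF2B2 in oocytes with all 12313 cumulus genes was 0.528 over the 19. Once the counts were also scaled to the library total, these medians were 9.2e-05, -0.0049 and 0.024. The 8 coefficients of CPEB4 then ran from 0.194 to 0.299 over all complexes, from 0.471 to 0.670 within BCB positive and from -0.353 to 0.293 within BCB negative complexes. Those of EIF2B2 over all complexes were 0.582 with ZSWIM4, 0.371 with RELB and 0.244 with RNF128. Within BCB positive complexes they were 0.782, 0.517 and 0.554, and within BCB negative complexes 0.816, 0.866 and 0.411, in the same order. On this scale 0 genes reached the thresholds with either member.

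**Figure D5:**
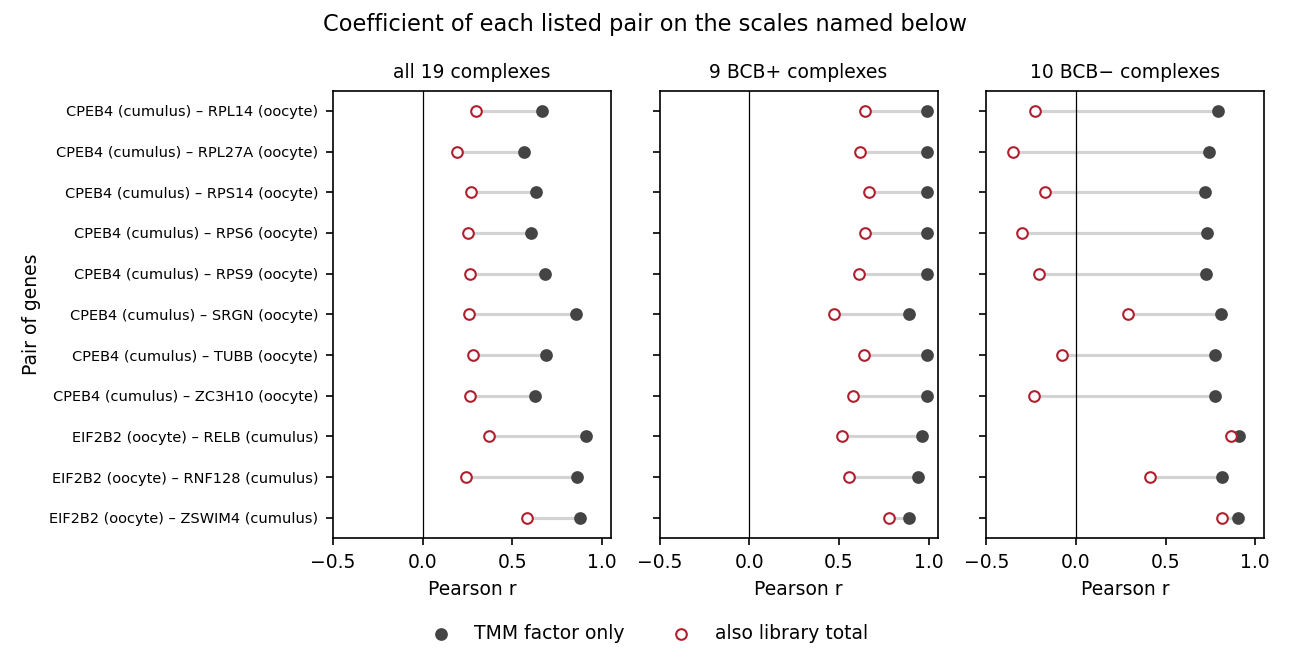
Pearson's coefficient of each listed pair of genes over all 19, the 9 BCB positive and the 10 BCB negative complexes, with counts divided by the TMM factor only (filled) and also scaled to the library total (open). The scaled coefficients of CPEB4 lay between 0.194 and 0.299 over all complexes, against 0.566 to 0.857 on the other scale.

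SRGN, linked to CPEB4 on the oocyte side, was far more abundant in cumulus cells, with 4238 to 9027 CPM there, and ran from 1.28 CPM through a median of 27.6 to 936 in oocytes. Its highest oocyte value was in complex 72, whose oocyte library also held the highest summed level of cumulus markers, 3565 CPM, and whose cumulus library held the highest CPEB4 level, 43.7 CPM. The part of cumulus RNA in the coefficient of CPEB4 with SRGN was not tested. None of the 11 listed partner genes was called between the BCB classes in its own compartment.

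Within a compartment, the genes most like the members were ranked by Pearson's r of log2(TMM-scaled CPM + 1) over 19 libraries, among 4595 oocyte and 4491 cumulus genes with a symbol. For CPEB4 in oocytes these were RNF111, a ubiquitin ligase, at 0.925 and TJP1, a tight junction protein, at 0.895, with 0.912 and 0.903 within BCB positive and 0.942 and 0.899 within BCB negative oocytes. For CPEB4 in cumulus cells they were KMT5B, a histone methyltransferase, at 0.787 and L3MBTL3 at 0.750, with 0.811 and 0.910 within BCB positive and 0.794 and 0.617 within BCB negative cumulus cells. For EIF2B2 in oocytes they were N4BP1 at 0.836 and IFIT2, an interferon-induced gene, at 0.758, with 0.607 and 0.906 within BCB positive and 0.956 and 0.604 within BCB negative oocytes. In cumulus cells they were COPE, a coatomer subunit, at 0.878 and SNX17, a sorting nexin, at 0.873, with 0.834 and 0.489 within BCB positive and 0.879 and 0.939 within BCB negative complexes. These are the highest of all coefficients compared and share libraries and depth, so that they are descriptions.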

How the data were processed

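RNA of 19 single oocytes and of their cumulus cells was measured in 38 libraries. The authors trimmed paired reads, aligned them to ARS-UCD1.2 with HISAT2 (2.1.0 in the submitters' processing notes), filtered and deduplicated the alignments, and counted Ensembl genes with featureCounts (1.6.0), whether with strand not being given in the sources used here. The deposited values are raw counts, without normalization. Groups and pairing came from the labels: libraries of the same complex number come from 1 complex, and after BCB means were taken out, own pairs correlated with a median of 0.0760 over 10281 genes, against 0.00028 for other pairs. Own pairs ran from -0.019 to 0.216, and in 6 of 19 complexes the own pair was the best match.

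The filter asked for more than 2 CPM in 9 or more of the 19 libraries of a compartment. It left 12753 in oocytes and 12313 in cumulus cells, and the union held 14785. edgeR 4.0.16 in R 4.3.3 was used with TMM factors, robust dispersions, the quasi-likelihood test and a Benjamini-Hochberg FDR of 0.01. The fit between compartments used group means and did not pair the libraries of a complex, which only the alternative with a block by complex does. SEs are the log2 fold change over the root of F, and 95% intervals are 1.96 SE. TMM-scaled CPM uses factors of the compartment. Relations used 100000 permutations, two-sided. Python 3.11.15, numpy 2.4.6, pandas 2.3.3, scipy 1.17.1 and matplotlib 3.10.9 were used for the rest, and the fit was tested on simulated data. No library was a copy of another (highest r of log2 CPM 0.994).

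Symbols of 4934 identifiers came from the supplementary tables, and other genes of the lists were not analysed here. The members and lists were chosen with earlier results of these data known. Genes named are the members, their families, the listed partners, genes of the lists past a BCB threshold or among up to 3 per direction with the largest difference between compartments, and the 2 most alike genes per member and compartment. TENT2, SRGN's levels beside the markers and the runs of complex numbers within a class were singled out after their values were seen. The alternatives were library totals alone, DESeq2's size factors, DESeq2 1.42.0, the likelihood-ratio test with DESeq2, other filters, an FDR of 0.05, covariates for run or log10 total, complexes 65 to 74, a block by complex, no genes of mitochondrial DNA, other scales and, chosen after the data were seen, leaving out the 4 complexes with cumulus totals under 2000000.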

Additional observations from a re-analysis of the deposited data

Results flagged for a closer look

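Among the values of CPEB4 and EIF2B2 in a compartment and BCB class, 2 libraries stood apart from the rest of their group by the gap to the nearest library relative to the whole range. In BCB positive oocytes, CPEB4 was lowest in complex 24, at a TMM-scaled CPM of 72.7, with a gap of 0.583 of the range (critical value 0.493 for 9 libraries). In BCB negative oocytes, EIF2B2 was highest in complex 89, at 32.4, with a gap of 0.514 of the range (critical value 0.466 for 10 libraries). Chance flags about 1 in 20 groups, and 8 groups of values were looked at, each at both ends. The oocyte library of complex 89 had the highest total of all, 29810354 counts, and 976 counts of EIF2B2, and that of complex 24 had 13077094 counts, of which 965 fell on CPEB4.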

How the results depend on the processing

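Over the 9 alternatives, the oocyte against cumulus fold changes kept their direction and their call for both genes, at 2.31 to 2.88 for CPEB4 and -1.50 to -0.91 for EIF2B2 on the log2 scale. Both were also kept within each BCB class, at 2.35 to 2.69 and -1.42 to -1.09 in BCB positive and 2.22 to 3.06 and -1.70 to -0.74 in BCB negative complexes. With the complex as a replicate block they were 2.54 and -1.37. The block took the genes called for the BCB difference between compartments from 54 to 2 and changed no call of CPEB4 or EIF2B2. Other counts for that difference were 123 at an FDR of 0.05, 666 with library totals alone, 121 with DESeq2, 225 without a filter, 30 with a CPM above 2 in all libraries and 7 without the 4 complexes of low cumulus total. In cumulus cells the BCB contrast called 360 genes at an FDR of 0.05, 1704 with library totals alone (1601 higher and 103 lower, against 5 and 64), 365 with DESeq2, 223 by the likelihood-ratio test and DESeq2 together, 164 without a filter, 115 with the run as a covariate, and 2 with the log10 total as a covariate or without the 4 complexes. DESeq2 called 1 gene in oocytes. The cause of these moves was not tested.

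Library totals alone moved the median of all genes to 0.46 on the log2 scale in cumulus cells, to -0.49 between compartments and from 0.15 to 0.56 for oocytes against cumulus cells, and no filter moved the last to -0.60. The BCB difference of CPEB4 reversed in oocytes with the run as a covariate (0.22) and in complexes 65 to 74 (0.53). It reversed in cumulus cells with library totals alone (0.23), the likelihood-ratio test without TMM (0.23), the run as a covariate (0.0369) and complexes 65 to 74 (0.17). EIF2B2 in cumulus cells passed the threshold with library totals alone (0.75). Between compartments, library totals alone gave -0.39 for CPEB4 and -0.37 for EIF2B2, and no filter -0.0439 and -0.0072.

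Differences in spread reversed without the 4 complexes for CPEB4 in oocytes (0.0354) and cumulus cells (0.0850) and for EIF2B2 in oocytes (-0.0153), and without TMM between compartments for EIF2B2 (-0.00498). EIF2B2 passed the threshold in cumulus cells without TMM (-0.311) and in oocytes of complexes 65 to 74 (0.252). The latter set 6 against 3 complexes, where the test cannot decide, as given above. The r of CPEB4 with the oocyte total lost the threshold within BCB positive (0.505) and negative (0.689) complexes, in complexes 65 to 74 (0.561) and without the 4 complexes (0.632). That of CPEB4 with the cumulus total reversed without TMM (0.396), within BCB positive (0.0157) and negative (0.155) complexes and in complexes 65 to 74 (0.261). EIF2B2 with the oocyte total reversed within BCB positive complexes (-0.00292) and without the 4 complexes (-0.123), its r with the cumulus total passed without TMM (0.809), and that with its own cumulus level reversed within BCB positive complexes (-0.0817).

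Genes at the co-expression threshold with CPEB4 over all complexes numbered 2, against 0 with library totals, 1 with log2 and 18 by rank. Within BCB positive complexes 7 became 0 with library totals and 4 by rank, and within BCB negative ones 0 became 1 by rank. With EIF2B2, 3 over all complexes became 0 with library totals, and 0 within BCB positive ones became 1 by rank. The 4 shallowest cumulus libraries held 5 to 39 counts of CPEB4, and without them the SE of its BCB difference there was 0.29, against 0.26 with them.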
